A study of Homo sapiens with 12 samples.

Results

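The genes described here are 7 members of the Notch pathway, namely the receptors NOTCH1, NOTCH2 and NOTCH3, the ligands JAG1 and JAG2, and the target genes HES1 and HEY1. They were taken as 7 listed Ensembl gene IDs of the 31720 on the arrays, and all 7 were found. The rows were ENSG00000148400_at for NOTCH1, ENSG00000134250_at for NOTCH2, ENSG00000074181_at for NOTCH3, ENSG00000101384_at for JAG1, ENSG00000184916_at for JAG2, ENSG00000114315_at for HES1 and ENSG00000164683_at for HEY1. Notch receptors sit in the cell membrane and are cut when a ligand of the Jagged or Delta family on a neighbouring cell binds them. The freed intracellular part joins the DNA-binding protein RBPJ and switches on genes such as HES1 and HEY1, which encode transcriptional repressors. In breast epithelium the pathway is known for its part in progenitor cell fate. In work the study cites, FICZ, a ligand of the aryl hydrocarbon receptor (AHR), induced Notch1 and Notch2 in triple negative breast cancer stem cells. The arrays here compare AHR knockout with control cells, which is an unlike measure, so they do not test that statement.

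RNA came from 12 Affymetrix whole human genome arrays, 3 in each of 4 groups, since MDA-MB-231 and SUM149 were each profiled as Cas9 control and as AHR knockout cells. Both are triple negative breast cancer lines, and SUM149 is a line of the inflammatory form of the disease. Knockout cells had received a lentivirus that carried Cas9 with a guide RNA against AHR, and Cas9 control cells one with Cas9 and no guide. After transduction the cells were plated by serial dilution and selected with puromycin. How many knockout clones stand behind a group, and whether its 3 arrays came from separate cultures, is not given in the sources used here, so differences between clones and loss of AHR cannot be told apart. The spread behind each p-value is that between arrays and may be technical in part. The lines were grown in different media, SUM149 in F-12K medium with hydrocortisone and insulin and MDA-MB-231 in Dulbecco's modified Eagle's medium, so line and medium cannot be told apart.

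The 2 guide targets are shown because they define the knockout, with the PAM read from the RefSeq sequence (GRCh38.p14) in capitals. Both matched the plus strand inside the AHR gene on chromosome 7, in the exon that the labels call the first, at chr7:17299290-17299309 and chr7:17299339-17299358. They start 638 and 687 bases after the annotated start of AHR.
AHR target A: cctacgccagtcgcaagcggCGG
AHR target B: ccgagcgcgtcctcatcgcgGGG
The AHR transcript was not read out here, since the reference table used paired 0 of the 31720 IDs with a symbol, and for the same reason marker genes of the lines were not analysed here. The study itself reports less AHR protein in the knockout cells of both lines by Western blotting. It also lists AHR, CYP1A1 and CYP1B1 among the genes lower after knockout.

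The values are log2 signals made by the authors with RMA, which corrects the background, brings the arrays to a common distribution and summarises the probes of each gene. Each gene has its own probes, so a gene is compared only with itself. HEY1 lay below the median signal of the array on 8 of the 12 arrays and was not compared with background, while the other 6 genes lay above that median on all 12. NOTCH2 has 4 NOTCH2NL paralogues in the RefSeq table, and whether the probes of NOTCH2 tell them apart is not given in the sources used here.

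**Figure D1:**
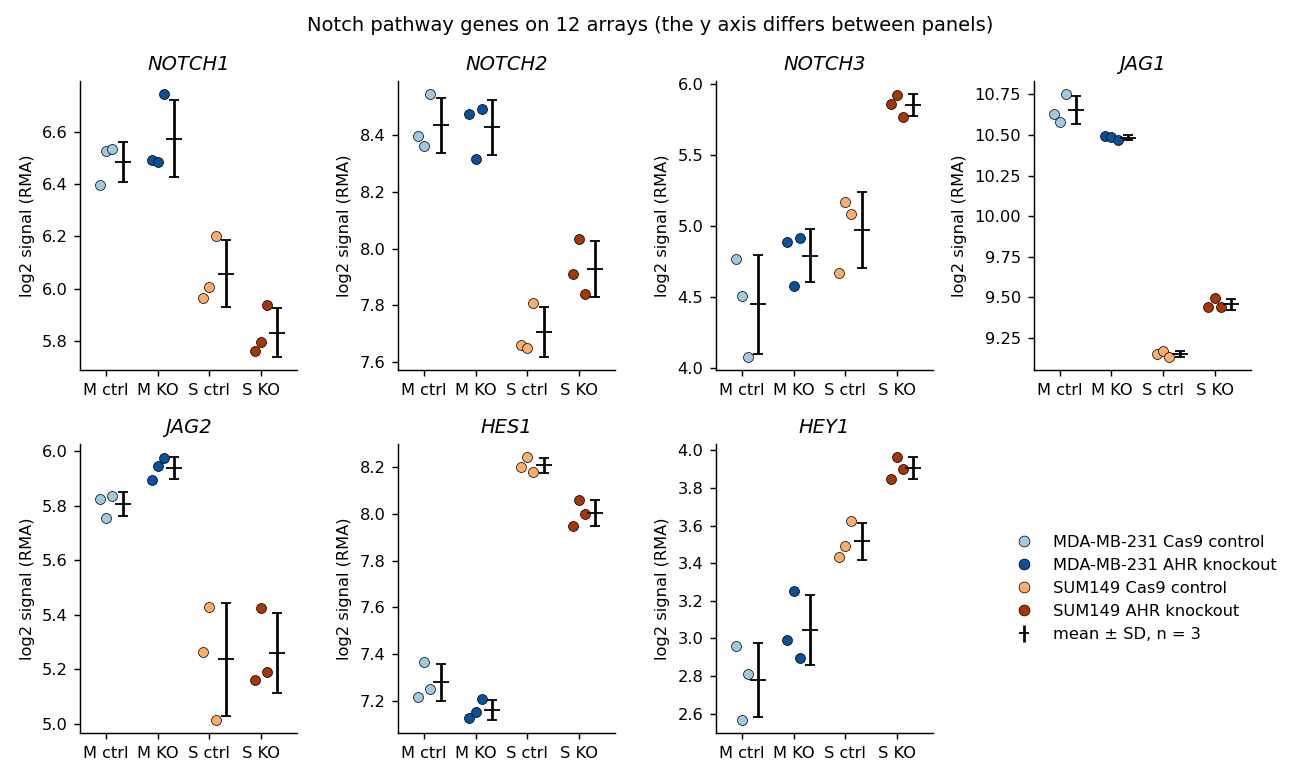
Each panel plots 1 gene, with the log2 signal on the y axis and the 4 groups on the x axis (M, MDA-MB-231; S, SUM149; ctrl, Cas9 control; KO, AHR knockout). Points are arrays and the bar beside them is the mean ± SD (n = 3). NOTCH3, JAG1 and HEY1 stand higher and HES1 lower on all 3 SUM149 knockout arrays than on the SUM149 controls.

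In SUM149, 4 of the 7 genes differed between AHR knockout and Cas9 control cells. NOTCH3, JAG1 and HEY1 rose and HES1 fell, by 1.84-, 1.24-, 1.31- and 1.15-fold. None of the 7 passed the test in MDA-MB-231. Calls were made where limma's p, after Benjamini-Hochberg adjustment across all 31720 genes, did not exceed 0.05. By this rule 8.59% of all genes were called higher and 8.23% lower in SUM149 knockout cells, 16.8% in either direction, against 3 and 1 of the 7. In MDA-MB-231 knockout cells the shares were 1.73%, 2.19% and 3.92%, against 0 of the 7. The median log2 fold change of the 7 genes was 0.22 in SUM149 and 0.09 in MDA-MB-231, and that of all genes was 0.01 and 0.00. In MDA-MB-231, JAG1 and HEY1 were below 0.05 in limma before adjustment and not after it. In bulk RNA, a change in the share of cells that express a gene and a change in RNA per cell cannot be told apart.

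The SUM149 groups did not overlap for 6 of the 7 genes, with the knockout arrays above in 4 and below in 2. Over all genes 16.7% lay above and 15.1% below in this way. In MDA-MB-231 this was so for 3 of the 7, with JAG2 above and JAG1 and HES1 below, against 11.2% and 10.9% of all genes.

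**Figure D2:**
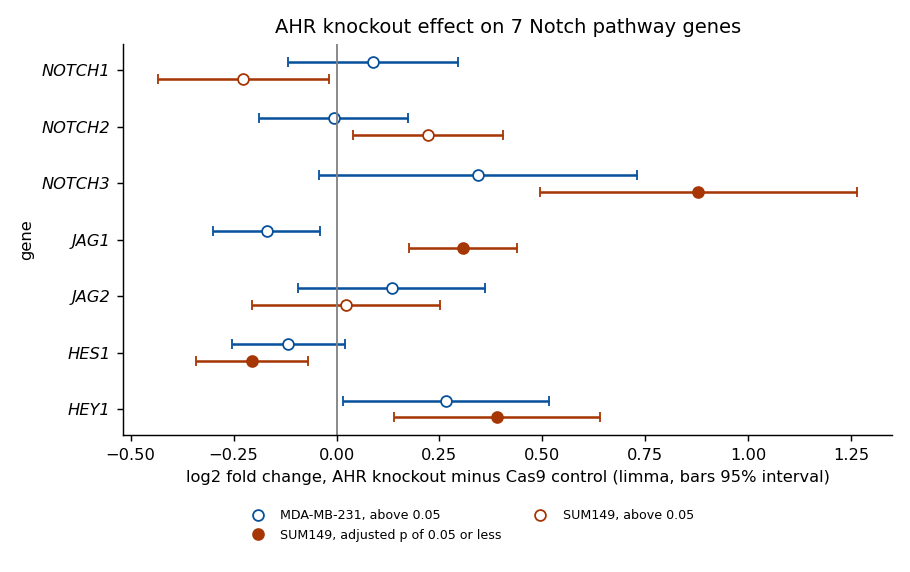
The x axis gives the log2 fold change of AHR knockout over Cas9 control from limma with its 95% interval, and the y axis the 7 genes, in MDA-MB-231 (blue) and SUM149 (brown). Filled points passed an adjusted p of 0.05. The filled points are NOTCH3, JAG1, HES1 and HEY1, all in SUM149.

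NOTCH3, a receptor best known from vascular smooth muscle and expressed in luminal progenitors of the breast, had the largest change of the 7. In SUM149 the control arrays read 4.67, 5.17 and 5.08 (log2 signal) and the knockout arrays 5.86, 5.92 and 5.77. All 3 knockout arrays were higher than every other array of the series for this gene. The group means were 4.97 ± 0.27 and 5.85 ± 0.08 (SD, n = 3), which differed by 0.88 on the log2 scale (limma, standard error 0.18, 95% interval 0.49 to 1.26, adjusted p = 0.0046). An absolute change larger than this was seen in 2% of all genes. The call held in all 21 alternative settings, and leaving out 1 array gave log2 fold changes of 0.73 to 0.98.

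In MDA-MB-231 the NOTCH3 control arrays read 4.76, 4.50 and 4.08 and the knockout arrays 4.88, 4.58 and 4.91. The groups overlapped, and control replicate 3 was the lowest of the 12 arrays. The log2 fold change was 0.34 (95% interval -0.04 to 0.73, adjusted p = 0.378 from limma), and 0.16 without MDA-MB-231 Cas9 control replicate 3. The difference between the 2 lines in this effect was 0.54 (95% interval -0.01 to 1.08) and did not pass (adjusted p = 0.213 from limma's interaction contrast), so a larger rise in SUM149 is not shown.

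NOTCH1 and NOTCH2, the receptors with the widest roles in development, did not pass the test in either line. In SUM149 the NOTCH1 arrays read 5.96, 6.01 and 6.20 in control and 5.76, 5.80 and 5.94 in knockout cells, which did not overlap. The log2 fold change was -0.23 (95% interval -0.43 to -0.02, adjusted p = 0.142 from limma). For NOTCH2 they read 7.66, 7.65 and 7.81 in control and 7.91, 8.03 and 7.84 in knockout cells, with all knockout arrays above. Its log2 fold change was 0.22 (95% interval 0.04 to 0.40, adjusted p = 0.0984 from limma), which passed only with a variance trend and robust moderation among the 21 alternatives (adjusted p = 0.0237). In MDA-MB-231 the groups overlapped for both receptors, with log2 fold changes of 0.09 (95% interval -0.12 to 0.29) for NOTCH1 and -0.01 (95% interval -0.19 to 0.17) for NOTCH2.

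JAG1, a ligand of all these receptors, changed in a way that differed between the lines. In SUM149 the control arrays read 9.15, 9.17 and 9.13 and the knockout arrays 9.44, 9.50 and 9.44. The SDs were 0.02 in control and 0.03 in knockout arrays, and the groups stood well apart. By limma the log2 fold change was 0.31 (standard error 0.06, 95% interval 0.18 to 0.44, adjusted p = 0.00371). In MDA-MB-231 the control arrays read 10.63, 10.58 and 10.75 and the knockout arrays 10.49, 10.49 and 10.47, so that the knockout arrays lay below every control. The log2 fold change there was -0.17 (95% interval -0.30 to -0.04) and did not pass (adjusted p = 0.169 from limma). With a variance trend and robust moderation it did (adjusted p = 0.00853), as it did with unmoderated statistics (0.0484).

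The JAG1 effect in SUM149 minus that in MDA-MB-231 was 0.48 (standard error 0.08, 95% interval 0.29 to 0.66, adjusted p = 0.0032 from limma's interaction contrast). JAG1 was the only one of the 7 for which this contrast passed, where 6.69% of all genes passed in the same direction, 6.47% in the other and 13.2% in either. It kept its call in all 12 fits without 1 array. JAG2, the second Jagged ligand, did not pass in either line. Its log2 fold change was 0.02 in SUM149 (95% interval -0.21 to 0.25), where the control arrays ran from 5.01 to 5.43 and the knockout arrays from 5.16 to 5.43. In MDA-MB-231 it was 0.13 (95% interval -0.09 to 0.36, adjusted p = 0.603), although the control arrays, at 5.76 to 5.83, all lay below the knockout arrays, at 5.89 to 5.97.

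HES1 and HEY1, repressors of the same basic helix-loop-helix family that are both read as outputs of Notch signaling, moved in opposite directions in SUM149. The HES1 control arrays read 8.20, 8.24 and 8.18 and the knockout arrays 7.95, 8.06 and 8.00. Every knockout array was below every control, and limma gave a difference of -0.21 in log2 signal (standard error 0.06, 95% interval -0.34 to -0.07, adjusted p = 0.0433). The HEY1 control arrays read 3.43, 3.49 and 3.62 and the knockout arrays 3.85, 3.97 and 3.90. Here every knockout array was above every control, and limma gave a difference of 0.39 in log2 signal (standard error 0.11, 95% interval 0.14 to 0.64, adjusted p = 0.0369).

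Both calls lay close to the threshold. That of HES1 was lost in 10 of the 12 fits without 1 array, where its adjusted p ran from 0.0359 to 0.141, and held only without MDA-MB-231 Cas9 control replicate 1 or 2. That of HEY1 was lost in 7 of the 12 (0.021 to 0.122), namely without MDA-MB-231 Cas9 control replicate 3, MDA-MB-231 AHR knockout replicate 1, SUM149 Cas9 control replicate 1 or 2, or any SUM149 knockout array. With arrays quantile-normalized again the HES1 fall did not pass (adjusted p = 0.064), and with unmoderated statistics the HEY1 rise did not (0.0631). In these 12 fits the sign of neither gene turned.

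**Figure D3:**
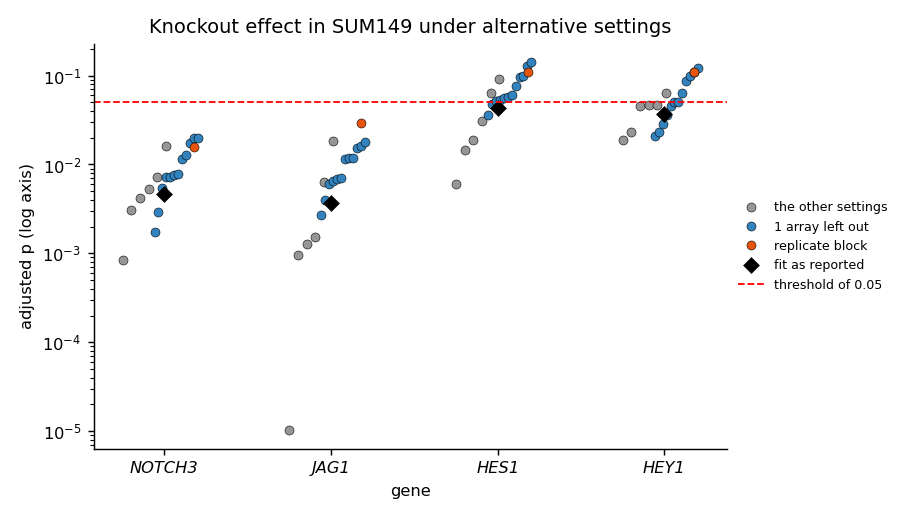
The y axis gives the adjusted p (log axis) of the knockout effect in SUM149 for the 4 called genes on the x axis, with the reported fit (diamonds), the fits without 1 array (blue), the replicate block (orange) and the other refits (grey), leaving out the settings that only change the threshold. NOTCH3 and JAG1 stay below the dashed line at 0.05 throughout, with a highest value of 0.0295 for JAG1, while HES1 and HEY1 fall on both sides of it.

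In MDA-MB-231 neither target gene passed. The HES1 control arrays read 7.22, 7.37 and 7.25 and the knockout arrays 7.12, 7.15 and 7.21, without overlap, and the log2 fold change was -0.12 (95% interval -0.25 to 0.02, adjusted p = 0.397 from limma). The HEY1 control arrays read 2.96, 2.57 and 2.81 and the knockout arrays 2.99, 3.25 and 2.89, with 1 control array above a knockout array. Its log2 fold change was 0.27 (95% interval 0.02 to 0.52, adjusted p = 0.275 from limma). The effects did not differ detectably between the lines for HES1 (difference -0.09, 95% interval -0.28 to 0.10) or HEY1 (difference 0.12, 95% interval -0.23 to 0.48).

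With both lines in 1 fit and 1 knockout effect, NOTCH3 was higher by 0.61 on the log2 scale (limma, standard error 0.14, adjusted p = 0.0334) and HEY1 by 0.33 (standard error 0.08, adjusted p = 0.0456), where 1.66% of all genes were called higher and 2.12% lower, 3.78% in either direction. HES1 was lower by 0.16 on the log2 scale without passing (adjusted p = 0.106). The mean of the 2 line effects from the fit with 4 group means did pass for HES1 (adjusted p = 0.0346). A two-sided exact permutation of the labels within each line, which needs no model of the variance, gave p = 0.005 for HES1, the smallest that 400 arrangements allow, and p = 0.01 for each of NOTCH3 and HEY1, unadjusted over 7 such tests. The exact p of the remaining 4 genes ran from 0.135 to 0.445. Within 1 line, 3 arrays against 3 cannot go below an exact p of 0.1. The across-line call of NOTCH3 was lost in 9 of the 12 fits without 1 array (adjusted p 0.0125 to 0.0827), including each of the 6 that left out a SUM149 array, and that of HEY1 in 10 (0.0276 to 0.112). NOTCH3 held only without MDA-MB-231 Cas9 control replicate 1 or 2 or MDA-MB-231 AHR knockout replicate 2. HEY1 held only without MDA-MB-231 Cas9 control replicate 1 or MDA-MB-231 AHR knockout replicate 3. The 7 genes had the same sign of effect in both lines in 4 cases (NOTCH3, JAG2, HES1 and HEY1) and opposite signs in 3. This count is given without its share over all genes and is not read as a result. The small effects of NOTCH2 in MDA-MB-231 and JAG2 in SUM149 turned in sign in some fits without 1 array.

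Over the 12 arrays, after the mean of each line was subtracted, the likeness of HES1 and HEY1 was a Pearson's r of -0.861, given as a description. Of all other genes, 0.139% had a lower r with HEY1 and 0.883% a lower r with HES1. NOTCH3 was the gene of the 7 most like HEY1 (r = 0.685), and 4.37% of all genes had a higher r with it. HEY1 was in turn the most like NOTCH3, NOTCH2 the most like JAG1 (r = 0.717) and NOTCH1 the most like HES1 (r = 0.488). These arrays share knockout status, so most of such an r can lie in the group means. With the mean of each of the 4 groups subtracted, r was -0.537 for HES1 with HEY1, 0.0157 for NOTCH3 with HEY1 and 0.531 for JAG1 with NOTCH2.

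**Figure D4:**
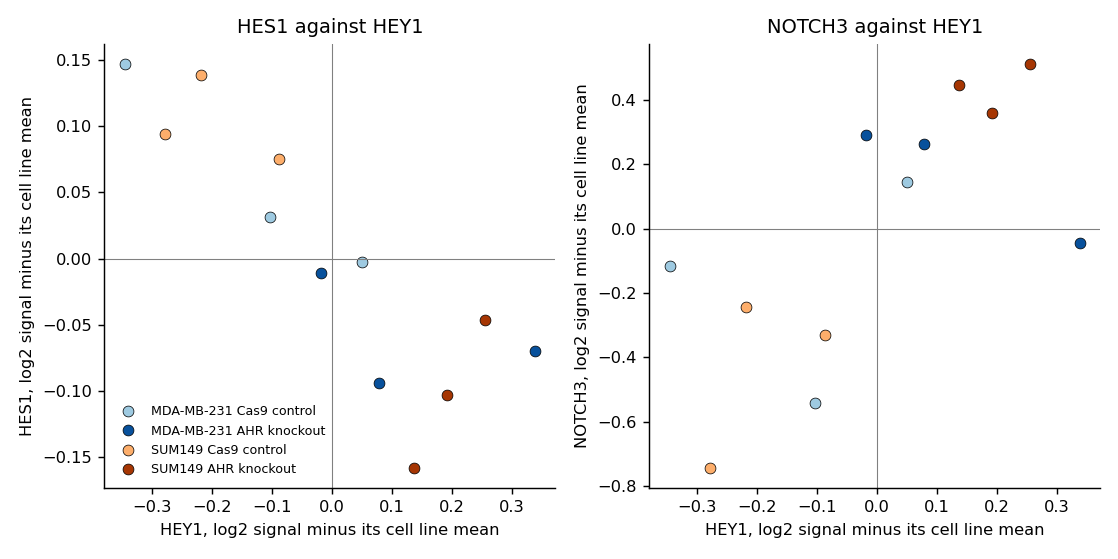
Each point is 1 array, with the log2 signal of HEY1 minus its cell line mean on the x axis and that of HES1 (left) or NOTCH3 (right) on the y axis. The HES1 and HEY1 points run from upper left to lower right (r = -0.861). The SUM149 control arrays are at the upper left and the SUM149 knockout arrays at the lower right. MDA-MB-231 Cas9 control replicate 2 is furthest to the upper left, and MDA-MB-231 AHR knockout replicate 2 is furthest to the right.

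Between the lines, all 7 genes differed in both genotypes. SUM149 cells had less NOTCH1, NOTCH2, JAG1 and JAG2 signal and more NOTCH3, HES1 and HEY1 signal than MDA-MB-231 cells. In Cas9 control cells 18.1% of all genes were called lower and 17.3% higher in SUM149 (35.4% in either direction), and in knockout cells 19% and 18.2% (37.3%). In control cells JAG1 differed most of the 7, at 10.65 ± 0.09 in MDA-MB-231 and 9.15 ± 0.02 in SUM149, a log2 fold change of -1.50 or 2.83-fold (adjusted p = 2.81e-09 from limma). In knockout cells it was -1.03 or 2.04-fold, beside 2.08-fold for NOTCH3 in the other direction, and the change in the JAG1 gap is the interaction given above. HES1 was 1.91-fold higher in SUM149 in control cells, at 8.21 ± 0.03 against 7.28 ± 0.08 (adjusted p = 2.4e-07), and 1.79-fold higher in knockout cells. No array of 1 line overlapped the other for any of the 7 genes in knockout cells, 3 above and 4 below, against 22.4% and 24.3% of all genes.

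In control cells the lines did not overlap for 6 of the 7 genes, 2 above and 4 below, against 21.4% and 24% of all genes. NOTCH3 was the exception, where 1 SUM149 array (4.67) lay below 1 MDA-MB-231 array (4.76). Its log2 fold change between the lines was 0.52 in control cells (adjusted p = 0.0369 from limma) and 1.06 in knockout cells (adjusted p = 0.000451). The first of these did not pass without MDA-MB-231 Cas9 control replicate 2 or 3 or SUM149 Cas9 control replicate 2 or 3, and was 0.34 (adjusted p = 0.14) without MDA-MB-231 Cas9 control replicate 3. The log2 fold changes of the others in control cells were -0.43 for NOTCH1, -0.73 for NOTCH2, -0.57 for JAG2 and 0.74 for HEY1, with adjusted p of 0.00341 or less.

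**Figure D5:**
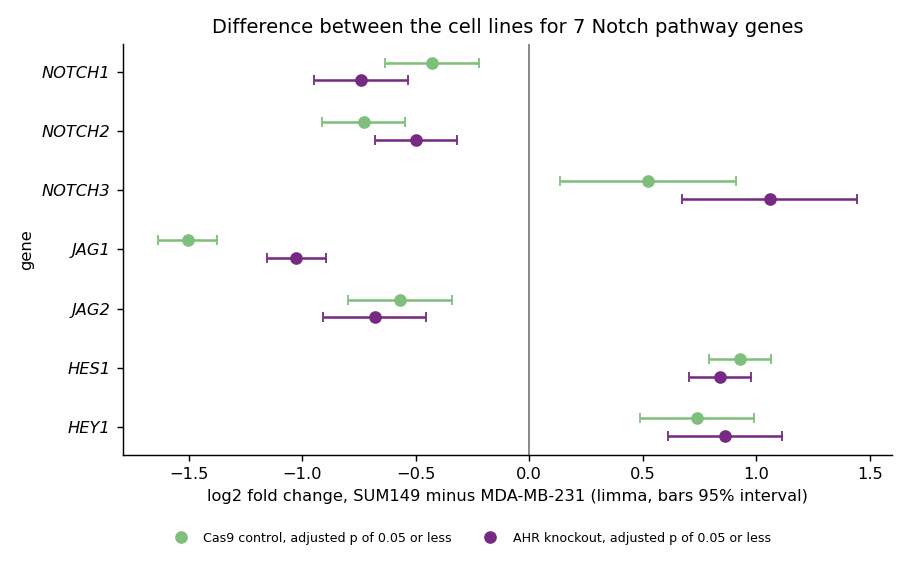
The x axis gives the log2 fold change of SUM149 over MDA-MB-231 from limma with its 95% interval, and the y axis the 7 genes, in Cas9 control cells (green) and AHR knockout cells (purple). All 14 points passed an adjusted p of 0.05, and the JAG1 gap is smaller in knockout (-1.03) than in control cells (-1.50).

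In the order of the 4 groups, NOTCH3 ran from MDA-MB-231 control (4.45) over MDA-MB-231 knockout (4.79) and SUM149 control (4.97) to SUM149 knockout (5.85), and only the last step passed. HEY1 had the same order, from 2.78 over 3.04 and 3.52 to 3.91, and only the first step did not pass. JAG1 ran from SUM149 control (9.15) over SUM149 knockout (9.46) and MDA-MB-231 knockout (10.48) to MDA-MB-231 control (10.65), with only the last step not passing. HES1 ran from MDA-MB-231 knockout (7.16) over MDA-MB-231 control (7.28) and SUM149 knockout (8.00) to SUM149 control (8.21), and only the first step did not pass. For NOTCH1, NOTCH2 and JAG2 the step between the lines was the only one that passed.

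Shown are the promoter windows of 3 of the 4 genes called in SUM149, and whether AHR binds in these windows was not tested. They run from 250 bases before to 50 bases after the RefSeq start (GRCh38.p14), and the windows of NOTCH1, NOTCH2, NOTCH3, JAG1, JAG2 and HES1 were searched. HEY1 was not analysed here. Capitals mark GCGTG, the core of the AHR response element, and TGGGAA, a core of RBPJ sites, on either strand.
NOTCH3 (chr19:15200946-15201245, minus strand): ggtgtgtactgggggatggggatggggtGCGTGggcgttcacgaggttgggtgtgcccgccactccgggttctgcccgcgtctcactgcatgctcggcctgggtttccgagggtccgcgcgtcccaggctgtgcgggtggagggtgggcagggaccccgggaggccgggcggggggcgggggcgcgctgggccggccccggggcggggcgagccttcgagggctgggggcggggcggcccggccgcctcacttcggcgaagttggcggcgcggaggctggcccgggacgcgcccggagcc
JAG1 (chr20:10673950-10674249, minus strand): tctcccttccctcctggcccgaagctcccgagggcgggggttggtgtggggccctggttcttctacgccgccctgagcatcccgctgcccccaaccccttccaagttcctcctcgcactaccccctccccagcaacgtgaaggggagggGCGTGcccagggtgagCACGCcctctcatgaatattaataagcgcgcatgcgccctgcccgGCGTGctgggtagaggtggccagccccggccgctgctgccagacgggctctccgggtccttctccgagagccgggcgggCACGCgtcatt
HES1 (chr3:194135898-194136197, plus strand): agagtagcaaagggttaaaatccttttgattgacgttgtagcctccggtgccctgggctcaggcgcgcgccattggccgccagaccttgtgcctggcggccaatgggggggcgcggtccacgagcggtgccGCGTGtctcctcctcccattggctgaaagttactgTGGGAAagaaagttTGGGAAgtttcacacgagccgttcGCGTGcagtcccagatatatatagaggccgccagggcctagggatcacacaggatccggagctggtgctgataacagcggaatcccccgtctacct
GCGTG was found in 36.5% of 35116 RefSeq windows of this length. The NOTCH3 window held 1 match, that of JAG1 held 4 and that of HES1 held 2. At least 4 matches were found in 1.63% of all windows and at least 2 in 12.7%. The windows behind all these shares were not matched to those of the 6 genes for base composition. TGGGAA was found only in the HES1 window among the 6, at 84 and 70 bases before the start, against 24% of all windows with at least 1 match and 3.8% with at least 2. The N box CACNAG, a site that HES proteins bind, had 4 matches in the HES1 window, which 0.293% of all windows reached. At least 1 match was found in 38% of all windows, and the NOTCH3 and NOTCH2 windows held 1 each and the NOTCH1 window 2, which overlapped each other on opposite strands. The JAG1 and JAG2 windows held 0. No marked match overlapped a match of another motif. The NOTCH1 window held 2 matches of GCGTG, the JAG2 window 1 and the NOTCH2 window 0. The study reports consensus AHR sites in promoters of a gene set that includes Notch1 and Notch2, and does not state the length searched. Counts in windows of 300 bases cannot be set against that. A match describes the letters of the window and does not show that a factor binds there.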

How the data were processed

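Gene expression was measured on 12 arrays, 3 for each of 4 groups taken from the sample titles. The deposited values are log2 signals, which the authors obtained by RMA and gave for 31720 Ensembl IDs. The submitters' processing notes name affy 1.48.0 and R 3.2.3. Which probe sets and build were used is not given in the sources used here. As RMA equalizes the distributions of the arrays, it hides a change shared by most transcripts. Within groups the arrays correlated across genes at 0.9939 to 0.9952, and no 2 arrays held the same values. The median SD between replicates was 0.108 to 0.115, and precision is set by the number of arrays.

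No filter was applied before testing, which used limma 3.58.1 under R 4.3.3. The effect in each line, its difference between the lines and the difference between lines came from a model with 4 group means (8 residual degrees of freedom). The effect across the lines came from a model with cell line and 1 knockout effect (9 residual degrees of freedom). Variances were moderated with eBayes, and Benjamini-Hochberg adjustment took in every gene of the table. Alternatives changed the model, moderation, filter, scaling, threshold or replicate block, or left out 1 array. The scripts were tested on simulated data. Python 3.11.15, pandas 2.3.3 and matplotlib 3.10.9 were used for tables and plots. The 7 genes, the tests and the lists were chosen with earlier results of these data known. All 7 were to be named, with the genes of fixed Notch pathway lists that were called, and AHR with its targets as a check. The symbols of the 7 IDs came with the definition of the gene group. Since the table used paired 0 IDs with symbols, the pathway lists, the AHR check and the cell line markers were not analysed here, and likeness was given among the 7 only. Promoters came from RefSeq (GRCh38.p14) by symbol, and guides from the labels.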

Additional observations from a re-analysis of the deposited data

Results flagged for a closer look

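JAG1 was the gene whose response to AHR knockout differed between the lines by a test of the difference itself. The effect in SUM149 minus that in MDA-MB-231 was 0.48 on the log2 scale (adjusted p = 0.0032 from limma's interaction contrast), with 0.31 in SUM149 and -0.17 in MDA-MB-231, and in each line all 3 knockout arrays lay beyond all 3 controls. Of all genes, 16.7% had all knockout arrays above the controls in SUM149, and 10.9% had all of them below in MDA-MB-231. The groups of 3 arrays are too small to be tested for a single array that stands apart.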

How the results depend on the processing

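Of 861 values of single genes under the alternatives, 784 kept their direction and side of the threshold, 67 lost and 6 gained a call, and 4 turned in sign. The signs that turned were those of uncalled effects near 0 when 1 array was left out, NOTCH2 in MDA-MB-231 (-0.044 to 0.048, above 0 without Cas9 control replicate 3 or AHR knockout replicate 2) and JAG2 in SUM149 (-0.088 to 0.12, below 0 without Cas9 control replicate 3 or AHR knockout replicate 2). Why calls changed was not tested, but a stricter p or fold can only remove them. The number of arrays, 3 a group, limits the precision, and HEY1 was not compared with background.

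Of the 7 genes, 1 was lower in SUM149 as reported, against 0 with separate fits of the lines, with arrays quantile-normalized again, at an adjusted p of 0.01 or when a 1.5-fold change was required. The 3 higher in SUM149 were 1 at that fold and 2, without HEY1, with unmoderated statistics (adjusted p = 0.0631) or at an adjusted p of 0.01. With a variance trend and robust moderation NOTCH2 was called higher there too (adjusted p = 0.0237 from limma). NOTCH3 between the lines in control cells was lost with unmoderated statistics (0.0775), at an adjusted p of 0.01 and at 1.5-fold as well. NOTCH2 between the lines in knockout cells was lost at 1.5-fold. In MDA-MB-231, 1 was lower, in place of 0, with a variance trend and robust moderation or unmoderated statistics. Across the lines, 1 was lower, in place of 0, under those settings and with the mean of the line effects. Of the 2 higher across the lines, 1 was left with arrays centred on the median, with arrays quantile-normalized again and at 1.5-fold, and 0 with unmoderated statistics and at an adjusted p of 0.01. The 1 effect that differed between the lines became 0, and the 4 lower in SUM149 than in MDA-MB-231 control cells 2, at 1.5-fold. Without 1 array, 0 to 1 of the genes were lower and 2 to 3 higher in SUM149 knockout than in SUM149 control cells. Across the lines 0 to 2 were higher, and in control cells 2 to 3 were higher in SUM149 than in MDA-MB-231.

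With the replicate number as a replicate block, 0 of the 7 were lower and 2 higher in SUM149 (NOTCH3, adjusted p = 0.0157, and JAG1, 0.0295), HES1 and HEY1 did not pass (0.109 and 0.11), and across the lines 0 were higher (NOTCH3, 0.131, and HEY1, 0.19). NOTCH3 between the lines in control cells did not pass either (0.0621), and the block changed no other call. Arrays with the same number deviated from their group means with r of -0.0173 to 0.0348 within a line, with 0 of 6 pairs above 0.1. These r are over all genes and cannot exclude a pairing that touches few of them. Whether the numbers mark pairs is not given in the sources used here.

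Over these settings the share of all genes called ran from 4.97% to 28.1% in SUM149, 1.16% to 8.47% in MDA-MB-231 and 0.514% to 12.1% across the lines. For the difference in effect between the lines this share ran from 6.47% to 23%. Between the lines in control cells it ran from 18.1% to 52.6%.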
